A study of Mus musculus with 2 samples.

Results

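RNA sequencing of intestinal subepithelial myofibroblasts (ISEMFs) was examined for 10 genes of the NF-κB pathway, out of 37309 genes in the table. They were taken by gene symbol, and all 10 were found: the subunit genes Nfkb1, Nfkb2, Rela and Relb, the feedback genes Nfkbia, Nfkbiz, Tnfaip3 and Birc3, and the adhesion genes Icam1 and Vcam1. Supportive ISEMFs, which let crypts grow into enteroids without added R-spondin, came from the small intestine of neonatal wild type C57BL/6 mice, 5 days old. Non-supportive ISEMFs, which did so only weakly, came from the small intestine of adult C57BL/6 mice, 2 months old. Both were grown in the same serum-containing medium with insulin, transferrin and EGF, and received no inflammatory stimulus that the methods name. There was 1 library of each population, so differences have no replicate check and carry no p-value, and population, age of the mice and isolation cannot be told apart. Names given to the deposited data carry P16 for the supportive and P3 for the non-supportive cells, which the sources used here do not explain. Whatever these mark cannot be told apart from the population either. Intervals below cover counting error only, and describe these 2 libraries.

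NF-κB is a family of transcription factors that work as dimers. In resting cells the dimers are held in the cytoplasm by IκB proteins. Signals from receptors for TNF, for IL-1 and for microbial products activate the IκB kinase, IκB is degraded, and the freed dimers enter the nucleus. Among their best known targets are the genes that shut the pathway down again, such as Nfkbia and Tnfaip3, and the surface molecules Icam1 and Vcam1, by which leukocytes attach. In the gut, stromal cells are a well known source of NF-κB driven cytokines, chemokines and prostaglandins during inflammation.

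Reads on genes numbered 50674472 among supportive and 49615497 among non-supportive ISEMFs. RPKM, the reads on a gene scaled for exon length and for library size, was as the authors deposited it. Genes that reached an RPKM of 1 in either library were compared, and a difference was counted from 2-fold on the scale of log2(RPKM + 0.1), with log2 ratios given as supportive over non-supportive. Of the 10086 genes that could be compared, 18.3% were past 2-fold in either direction, 9.01% higher and 9.27% lower in the supportive library, and their median log2 ratio was -0.07. Of these reads, mitochondrial ribosomal RNA took 13.5% and 7.13%. All 10 myofibroblast markers could be compared, and 2 were past 2-fold higher and 4 lower in the supportive library. Acta2, the gene of α-smooth muscle actin, was the most abundant, at an RPKM of 908 against 1410. The collagen gene Col1a2 was 6.88-fold and the PDGF receptor gene Pdgfrb 3.66-fold higher in the supportive library. The muscle genes Des and Myh11 were 5.92-fold and 4.11-fold lower, Pdgfra was 3.59-fold lower and Cnn1 2.37-fold lower.

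In the mm9 genome the genes are spread over several chromosomes. Nfkb1 lies on chromosome 3 from 135247619 to 135354511 on the minus strand, and Vcam1 on the same chromosome and strand from 115812938 to 115832606. On chromosome 19 are Nfkb2, from 46379227 to 46386580, and Rela, from 5637483 to 5648130, both on the plus strand. Relb is on chromosome 7 from 20191566 to 20214787, Nfkbia on chromosome 12 from 56590398 to 56593634, Nfkbiz on chromosome 16 from 55811488 to 55839012 and Tnfaip3 on chromosome 10 from 18720716 to 18735463, all on the minus strand. Chromosome 9 holds Birc3, from 7848699 to 7873186 on the minus strand, and Icam1, from 20820404 to 20833241 on the plus strand. In the annotation Nfkb1 has the most exons, in 26 separate blocks, and Nfkbia the fewest, in 6. Part of the Icam1 exons, 491 bases or 19.3% of them, overlaps Mir1900 on the other strand. Reads there may have been left out as ambiguous.

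Promoter sequences were available from RefSeq (GRCm38.p6) for 6 of the 10 genes, Birc3, Icam1, Nfkb2, Nfkbia, Rela and Tnfaip3. The 250 bases upstream of each start site were searched on both strands for the κB consensus, the sequence that NF-κB dimers bind, which begins with a run of G and a purine and ends with pyrimidines and a pair of C. Matches were found for 3 genes, Nfkb2, Nfkbia and Tnfaip3. Sequences that depart from the consensus were not searched for, so a gene without a match may still hold a site. Over all genes of the promoter table, 8.23% had a match in at least 1 of their promoters (2225 of 27025). These 3 sequences are shown because 2 of them belong to feedback genes with large differences between the libraries and the other to a subunit gene that was nearly level. Capitals mark the matches, and each sequence is written 5′ to 3′ on the strand of its gene and ends at the base before the start site.
Nfkbia, chr12:55492648-55492897, minus strand: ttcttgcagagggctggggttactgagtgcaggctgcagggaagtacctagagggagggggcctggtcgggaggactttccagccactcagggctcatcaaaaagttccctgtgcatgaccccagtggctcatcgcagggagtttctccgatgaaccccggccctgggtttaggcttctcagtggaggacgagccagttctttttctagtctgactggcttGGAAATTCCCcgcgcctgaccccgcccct
Tnfaip3, chr10:19015411-19015660, minus strand: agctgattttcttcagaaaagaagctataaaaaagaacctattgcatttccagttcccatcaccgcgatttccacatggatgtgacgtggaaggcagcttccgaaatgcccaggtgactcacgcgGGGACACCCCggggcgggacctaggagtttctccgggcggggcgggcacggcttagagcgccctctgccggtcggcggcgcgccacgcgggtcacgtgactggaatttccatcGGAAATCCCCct
Nfkb2, chr19:46304487-46304736, plus strand: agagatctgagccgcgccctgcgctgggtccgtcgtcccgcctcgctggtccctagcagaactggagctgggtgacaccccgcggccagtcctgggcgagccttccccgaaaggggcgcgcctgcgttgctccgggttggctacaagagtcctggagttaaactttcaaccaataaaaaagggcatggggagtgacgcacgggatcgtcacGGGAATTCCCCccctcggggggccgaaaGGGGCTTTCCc
The Nfkbia match, GGAAATTCCC, lies at -29 to -20 from the start site. Tnfaip3 has GGGACACCCC at -125 to -116 and GGAAATCCCC at -12 to -3. In the Nfkb2 promoter shown, overlapping matches begin at -39 and -38 and a further one, GGGGCTTTCC, at -11. The other two Nfkb2 promoters in the table hold 1 match each, and the second Tnfaip3 promoter holds 0. A match is a run of letters, and no binding was measured.

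Of the 4 subunit genes 3 could be compared, and 0 were past 2-fold, where 18.3% of all genes compared were. At that share a count of 0 among 3 genes says little about the subunits. Rela encodes the p65 subunit, the main activating partner of the classical dimer. It had an RPKM of 5.91 from 1148 reads among supportive ISEMFs and 5.96 from 1125 reads among non-supportive ISEMFs. The RPKM ratio was 0.992 (95% exact interval, 0.913 to 1.08), so a difference was not detectable at this depth, and its log2 ratio was -0.01. Nfkb2, the gene of the p100 precursor of p52 in the alternative branch, was also nearly level. It had 371 and 390 reads, RPKM values of 1.47 and 1.59, and a ratio of 0.924 (0.800 to 1.07).

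Nfkb1, which encodes the precursor of p50, had an RPKM of 1.67 from 961 reads among supportive ISEMFs and 2.23 from 1245 reads among non-supportive ISEMFs. It was lower in the supportive library by more than counting error alone, at a ratio of 0.750 (0.689 to 0.817), but well short of 2-fold. Relb, the partner of p52, was low in both libraries, with 118 reads and an RPKM of 0.315 against 78 reads and an RPKM of 0.214. It was not among the genes compared, and its ratio of 1.47 had an interval from 1.10 to 1.98. Of the subunit genes, Nfkb1 was thus lower and Relb, at few reads, higher in the supportive library, both by more than counting error alone.

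**Figure D1:**
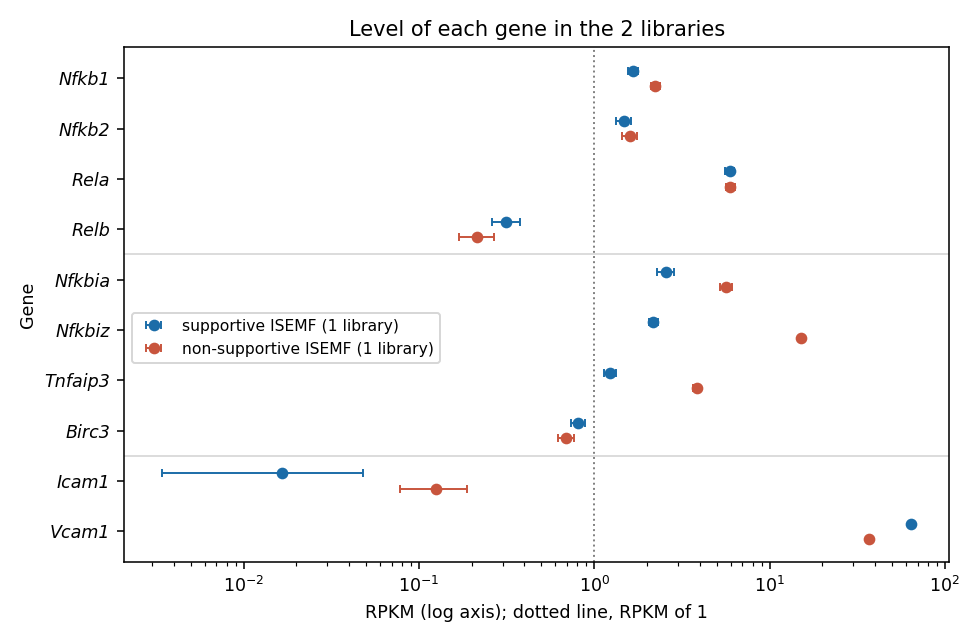
RPKM of the 10 genes in the supportive (blue) and the non-supportive (red) library, on a log axis, with bars for the exact 95% Poisson interval of the reads. The subunit genes lie close together in the 2 libraries, Nfkbia, Nfkbiz and Tnfaip3 lie further right in the non-supportive library, and Vcam1 is the highest of the 10 in both.

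The make-up of the subunit pool could be set out because RPKM is per length. With Rel, which encodes the fifth subunit, c-Rel, the 5 subunit genes had a summed RPKM of 14.1 among supportive and 13.2 among non-supportive ISEMFs. Rela took the largest share of that sum in both, at 41.8% and 45.3%. Rel came second, at 33.7% among supportive and 24.1% among non-supportive ISEMFs. It had 954 and 617 reads, RPKM values of 4.77 and 3.17, and a ratio of 1.503 (1.36 to 1.67). Nfkb1 took 11.8% and 16.9%, Nfkb2 10.4% and 12.1%, and Relb 2.23% and 1.63%. The share of Nfkb1 depends on which exons are counted in its length, since the authors' length is 8042 bases and the reference annotation gives 4794. With reference lengths its share was 18.1% and 25.1%, which put it above Rel in the non-supportive library, where Rel was then at 21.3%.

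**Figure D2:**
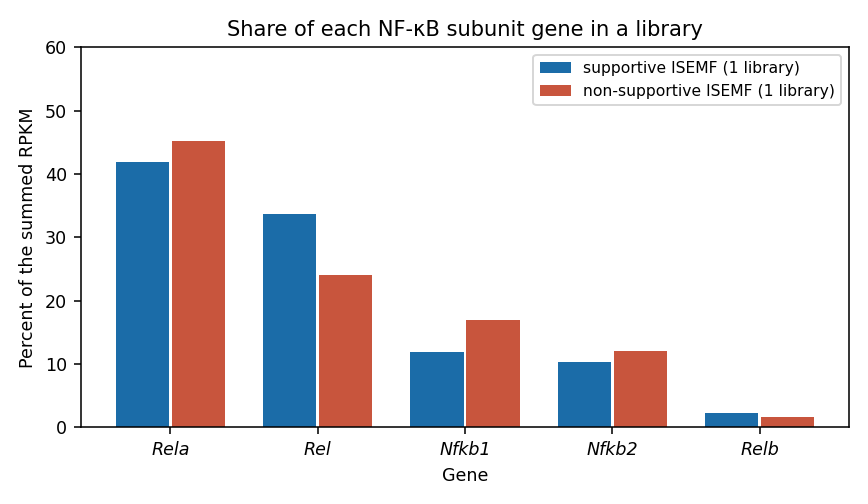
Share of the summed RPKM of the 5 NF-κB subunit genes that each took in the supportive (blue) and non-supportive (red) library, in percent. Rela was highest in both libraries, with 41.8% and 45.3%, and the Rel share was 33.7% against 24.1%.

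The feedback genes differed more between the libraries. Nfkbia, Nfkbiz and Tnfaip3 were all more than 2-fold lower in the supportive library, and Birc3 was not. Nfkbiz encodes IκBζ, an atypical nuclear IκB that is induced by IL-1 and by microbial products and helps to switch on a second wave of target genes. It had an RPKM of 2.17 from 1087 reads among supportive ISEMFs and 15.01 from 7295 reads among non-supportive ISEMFs. That put Nfkbiz at rank 1701 of the protein-coding genes in the non-supportive and at rank 6621 in the supportive library. It was 6.91-fold lower in the supportive library (95% exact interval, 6.48 to 7.37), at a log2 ratio of -2.73. Of the 10086 genes compared, 2.12% had a lower log2 ratio.

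Tnfaip3 encodes A20, a ubiquitin-editing enzyme that takes down the signal between the TNF receptor and the IκB kinase. Its reads numbered 663 and 2020, with RPKM values of 1.23 among supportive and 3.84 among non-supportive ISEMFs. The gene was 3.14-fold lower in the supportive library (2.87 to 3.43), at a log2 ratio of -1.57. Nfkbia encodes IκBα, the classical inhibitor that NF-κB itself restores after activation. It had an RPKM of 2.56 from 288 reads among supportive ISEMFs and 5.63 from 617 reads among non-supportive ISEMFs. It was 2.20-fold lower (1.91 to 2.54), at a log2 ratio of -1.11, so the lower end of its interval lies under 2-fold. With mitochondrial genes left out of the library size, its log2 ratio was -0.99, and it was not past 2-fold.

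Birc3 encodes cIAP2, a ubiquitin ligase of the TNF receptor complex that is also a target of NF-κB. It had an RPKM of 0.810 from 442 reads among supportive ISEMFs and 0.690 from 366 reads among non-supportive ISEMFs. At a ratio of 1.17 (1.02 to 1.35) it was slightly higher in the supportive library, by little more than counting error alone. Birc3 was not among the genes compared. Its neighbour and close relative Birc2, the gene of cIAP1, was more abundant and nearly level, at an RPKM of 7.68 and 7.33. Birc2 falls outside the rule for named genes and was chosen after its values were seen.

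**Figure D3:**
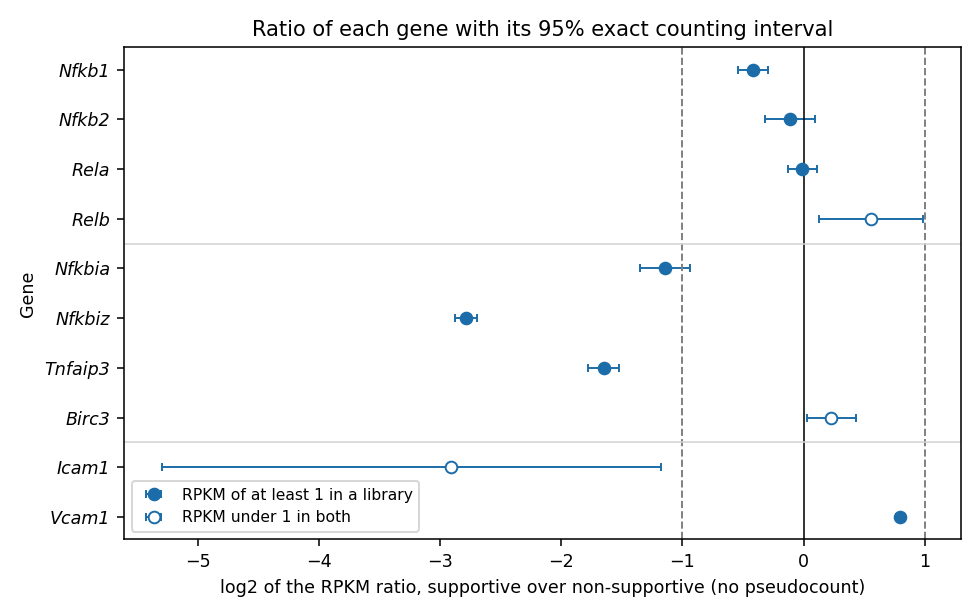
Log2 of the RPKM ratio of supportive over non-supportive for each gene, without a pseudocount, with its 95% exact counting interval. Dashed lines mark 2-fold, filled points are genes that reached an RPKM of 1, and only Nfkbia, Nfkbiz and Tnfaip3 among the filled points lie left of -1.

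Set against a subunit gene in the same library, Nfkbia, Tnfaip3 and Nfkbiz were lower in the supportive library, and Birc3 was not. This follows from the ratios given above, with Rela nearly level, and is not further support for them. The RPKM of Nfkbia was 0.432 times that of Rela in the supportive library and 0.945 times in the non-supportive library. For Tnfaip3 the same quotient was 0.207 and 0.644, and for Birc3 it was 0.137 and 0.116. Nfkbiz was at 1.30 times the RPKM of Nfkb1, whose product it binds, in the supportive library and at 6.74 times in the non-supportive one. These quotients do not depend on the size of the libraries, but they depend on exon length. The authors' length is 8042 bases for Nfkb1 and 6996 for Nfkbiz, where the reference annotation gives 4794 and 5018. The quotients were not repeated with reference lengths. How a quotient differs between the libraries does not depend on length.

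The adhesion genes were at opposite ends of the range of levels. Vcam1 encodes a ligand for α4 integrins and is known to be carried by many stromal cells. It had an RPKM of 63.8 from 22433 reads among supportive ISEMFs and 36.7 from 12544 reads among non-supportive ISEMFs. Among protein-coding genes it ranked 254 in supportive and 650 in non-supportive ISEMFs, above the other 9 genes in both. Its level was 1.74-fold higher in the supportive library (1.70 to 1.78), at a log2 ratio of 0.80, the direction opposite to that of Nfkbia, Nfkbiz and Tnfaip3. That difference is beyond counting error but short of 2-fold, and 24.3% of the genes compared had a larger one in either direction.

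Icam1, the gene of the ligand for β2 integrins, was hardly detected. The supportive library held 3 Icam1 reads, an RPKM of 0.0165, and the non-supportive library 22 reads, an RPKM of 0.125. Its RPKM was 7.55-fold lower in the supportive library, but with so few reads the interval ran from 2.27 to 39.4, and the gene was far under the level at which genes were compared.

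Of the 10 genes, 7 reached an RPKM of 1 in a library and could be compared. Of these 0 were past 2-fold higher and 3 were past 2-fold lower in the supportive library, 42.9% where 9.27% of all genes compared were lower. Their median log2 ratio was -0.39, beside -0.07 for all genes compared, and their median absolute log2 ratio was 0.80, beside 0.42. Only 7 genes stand behind these figures, and Relb, Birc3 and Icam1 are not in them. Which genes reach an RPKM of 1 depends on the exon length used. For several of the 10 genes the authors' length differs from the reference annotation, for Birc3 with 7634 against 5009 bases. The count was not repeated with reference lengths.

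**Figure D4:**
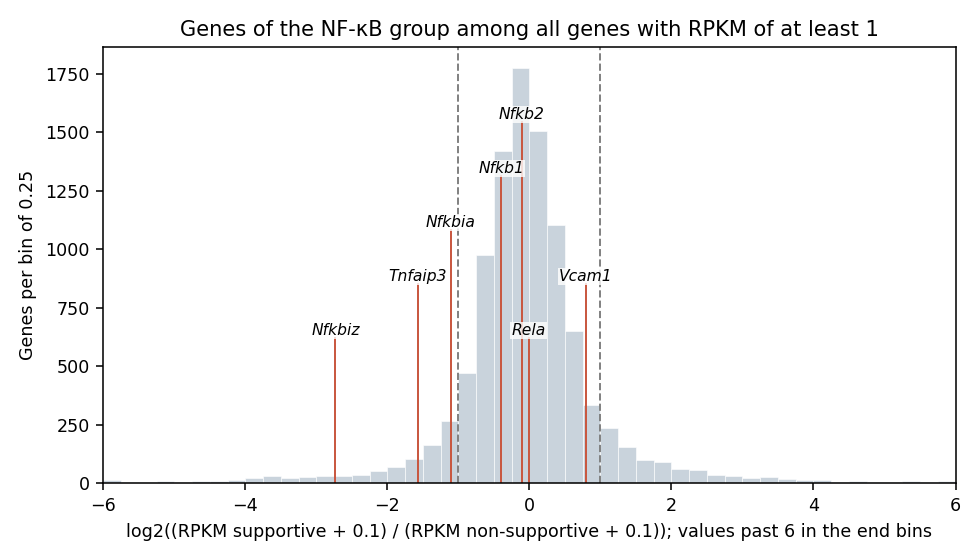
Distribution of the log2 ratio over the 10086 genes compared (grey bars, genes per bin), with red lines for the 7 genes of the group that were compared; the height of a line carries no value. Nfkbiz, Tnfaip3 and Nfkbia lie left of the dashed line for 2-fold, and Rela and Nfkb2 lie near 0.

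The rest of the pathway, other adhesion genes and integrin genes were described with lists of 134 further genes. All of these were in the table, and 83 could be compared. Of these, 9 were past 2-fold higher (10.8%) and 19 lower (22.9%) in the supportive library, against 9.01% and 9.27% of all genes compared. Some of both reached an RPKM of 1 only in the library where they are high. Il1a and Itgam are such genes among the lower and Usp18 among the higher. They were compared because of that library, which weighs on these shares. More than any other list, the secreted targets made up the lower genes, and the 12 genes compared from the kinase list stayed under 2-fold.

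The list of IκB kinase and upstream kinase genes had 18 genes, and it also holds regulatory subunits and adaptors. Of its genes 12 could be compared and 0 were past 2-fold, where 18.3% of all genes compared were. Their log2 ratios ran from -0.62 to 0.56. The most abundant was Tab2, the gene of an adaptor of the kinase TAK1, at RPKM values of 28.9 among supportive and 23.6 among non-supportive ISEMFs. Among 13 adaptor and ubiquitin ligase genes compared, 1 was past 2-fold. This was Myd88, the adaptor of IL-1 and Toll-like receptors, which was 2.30-fold higher in the supportive library (1.97 to 2.69), at an RPKM of 1.51 against 0.657. Xiap, a relative of Birc3, had the highest RPKM of that list, 7.93 against 6.65. Nfkbie, which encodes the inhibitor IκBε, went the other way from Nfkbia. It had an RPKM of 1.12 from 194 reads among supportive ISEMFs and 0.464 from 78 reads among non-supportive ISEMFs, a ratio of 2.42 (1.85 to 3.19).

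Of 8 receptor genes compared, 1 was past 2-fold higher and 2 were past 2-fold lower in the supportive library. Over all genes compared these shares were 9.01% and 9.27%. Tnfrsf11a, the gene of RANK, was 9.87-fold lower (8.09 to 12.1), at an RPKM of 0.301 against 2.97. Il1r1, the gene of the signaling IL-1 receptor, was 2.07-fold lower (1.92 to 2.24), at 1.65 against 3.42. Tnfrsf1b, which encodes the second TNF receptor, was 2.07-fold higher (1.92 to 2.22), at 8.21 against 3.97. The most abundant receptor was Tnfrsf12a, the receptor of TWEAK, at RPKM values of 26.1 among supportive and 44.8 among non-supportive ISEMFs.

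Most ligand genes were scarcely detected, and 2 of 11 could be compared. Il1a, the gene of IL-1α, had 2 reads among supportive and 218 among non-supportive ISEMFs, where its RPKM was 1.59. That is a 112-fold difference, with a counting interval from 30.7 to 932. Tnfsf12, the gene of TWEAK, was near level, at an RPKM of 2.71 against 2.92. Tnf, which falls outside the rule for named genes and was chosen after its values were seen, had 0 reads among supportive and 28 among non-supportive ISEMFs, where its RPKM was 0.150. In the supportive library 3 reads of Tnf, the floor used for a count of 0, would be an RPKM of 0.0156.

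Of the further genes that restrain the pathway, 11 were compared. Of these, 1 was past 2-fold, where 18.3% of all genes compared were, and it was higher in the supportive library. This was Usp18, a protease best known as an interferon-induced gene, at an RPKM of 2.35 against 0.195, a ratio of 12.03 (7.93 to 19.1). Zfp36, whose product tristetraprolin destabilises cytokine mRNAs, was the most abundant of them, at 138 among supportive and 76.9 among non-supportive ISEMFs.

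All 12 survival and stress target genes could be compared. In the supportive library 1 was past 2-fold higher and 3 were past 2-fold lower, beside 9.01% and 9.27% of all genes compared. Hmox1, the gene of heme oxygenase, was 3.12-fold lower (2.95 to 3.30), at an RPKM of 8.47 against 26.4. Bcl2l1, the gene of the survival factor Bcl-xL, was 2.47-fold lower (2.31 to 2.64), at 1.55 against 3.83. Tnfaip6, which encodes a hyaluronan-binding protein, was 7.29-fold higher (4.56 to 12.3), at 1.23 against 0.168. Fth1, the ferritin heavy chain, was the most abundant and nearly level, at an RPKM of 767 and 693.

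The list of secreted targets made up 10 of the 19 lower genes. It also holds genes of enzymes that stay in the cell, among them Ptgs2, its most abundant gene. Of 23 genes, 12 could be compared, and 10 of these were past 2-fold lower and 1 past 2-fold higher in the supportive library. The shares over all genes compared were 9.27% and 9.01%. The 12 genes had a median log2 ratio of -3.14. Some of the lower genes, such as Saa3 and Mmp13, reached an RPKM of 1 only in the non-supportive library. The 1 higher gene reached it only in the supportive library. Such genes were compared because of the library where they are high, which weighs on the counts and the median. Saa3, an acute-phase protein gene, had 0 reads among supportive and 2649 among non-supportive ISEMFs, where its RPKM was 71.8. Computed at 3 reads, it was 909-fold lower in the supportive library. The 95% exact interval, which allows more for a count of 0, began at 738-fold. Mmp13, a collagenase gene, had 4 reads against 806, and RPKM values of 0.0209 and 4.34. Ptgs2, the gene of the inducible cyclooxygenase, had 3478 reads against 123351 and was 36.5-fold lower (35.3 to 37.8). The 1 higher gene was Cx3cl1, the gene of the membrane-bound chemokine fractalkine, at an RPKM of 5.92 against 0.406. It was named for that count, after its values were seen.

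Of 15 other adhesion genes, 6 could be compared. In the supportive library 2 of them were past 2-fold higher and 1 was past 2-fold lower, beside 9.01% and 9.27% of all genes compared. F11r, the gene of the junctional molecule JAM-A, was 4.14-fold higher (3.91 to 4.38), at an RPKM of 26.1 against 6.30, and its relative Jam2 was 2.17-fold higher (1.98 to 2.38), at 3.41 against 1.57. Alcam, which encodes a ligand of CD6, was 3.24-fold lower (3.03 to 3.48), at 1.72 against 5.59. Mcam had the highest RPKM of that list, 29.7 against 44.7.

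The integrins that bind Vcam1 and Icam1 were set beside them. Itga4, the α4 chain of the Vcam1 receptor, was 4.36-fold higher in the supportive library (3.995 to 4.76), at an RPKM of 1.78 against 0.408. Itgb1, the β1 chain that pairs with it and with many other chains, was 2.42-fold lower (2.41 to 2.44), at 272 against 658. Itgam, a leukocyte chain that binds Icam1, had 0 reads among supportive and 1070 among non-supportive ISEMFs. It is also in the list of macrophage and leukocyte markers below.

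**Figure D5:**
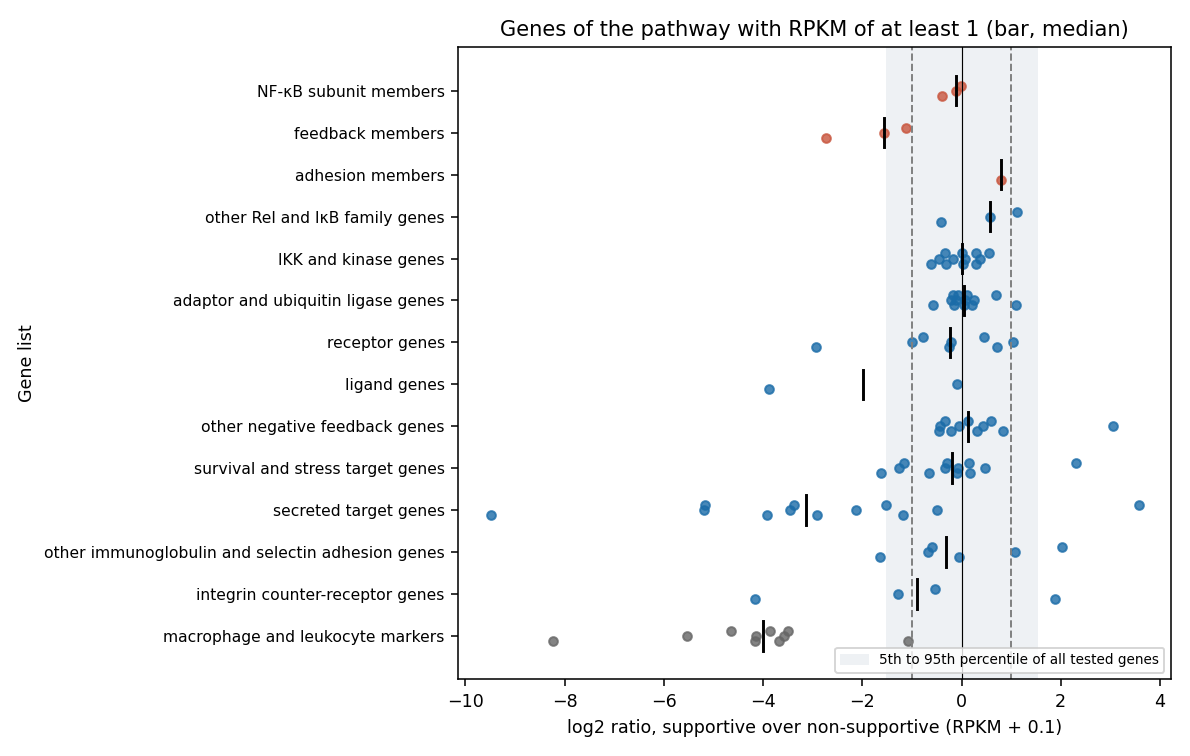
Log2 ratio of supportive over non-supportive (RPKM + 0.1) for every gene that reached an RPKM of 1, by gene list, with a bar at the median, dashed lines at 2-fold and a shaded band from the 5th to the 95th percentile of all genes compared. All genes of the kinase list and all of the adaptor list but Myd88 lie inside the 2-fold lines. The 3 feedback genes, most secreted targets and all macrophage and leukocyte markers lie to the left.

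Macrophage and leukocyte markers differed in the same direction as Nfkbia, Nfkbiz and Tnfaip3. All 14 macrophage and leukocyte markers in the table were lower in the supportive library, and 6 of them had no read there. Their summed RPKM was 9.58 among supportive and 133 among non-supportive ISEMFs, with Ptprc, the gene of CD45, at 0 and 1.67. Myeloid cells are known to express Nfkbia, Nfkbiz and Tnfaip3 as well, and in bulk RNA fewer cells of a type and less RNA per cell cannot be told apart. The part of such cells in the feedback genes, in Icam1 and in the secreted targets was not tested. Lymphocyte markers had a summed RPKM of 0 and 0.0400, and endothelial markers, a common source of Icam1 and Vcam1, of 0.157 and 0.246, with 4 of 8 endothelial markers at 0 reads among supportive and 2 among non-supportive ISEMFs. Single endothelial markers went opposite ways, with 65 and 2 reads for Tek and 2 and 88 for Kdr. Epithelial markers summed to an RPKM of 0.582 and 3.48, of which Krt20 alone made 3.13 in the non-supportive library. Without Krt20 the sum was 0.502 and 0.346, with Cdh1, the gene of E-cadherin, at 159 and 18 reads and the mucin gene Muc2 at 27 and 3 reads.

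The κB consensus was also counted in the promoters of the genes of these pathway, adhesion and integrin lists. Of the genes past 2-fold lower in the supportive library, 15 had a promoter in the table and 6 of these had a match (40.0%). The count was 1 of 7 for those past 2-fold higher (14.3%) and 11 of 45 for those under 2-fold (24.4%), all read against the 8.23% of all genes. These are small counts of letter matches in lists chosen for their place in the pathway or beside it, and were not tested.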

How the data were processed

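Libraries were made from mRNA with the TruSeq RNA kit and sequenced as single-end reads of 50 bases. The authors aligned them to mm9 with TopHat (TopHat2 2.0.4 in the submitters' processing notes) using Ensembl annotation, allowed 2 mismatches and unique hits only, and counted reads per gene with HTSeq 0.5.4p3. The deposited counts are raw whole reads per gene. The deposited RPKM values are those counts scaled for exon length (the union of all exons) and for library size. The authors' log2 ratio and DESeq p-values, and a shorter table of Wnt pathway genes, were not used. With 1 library per population, edgeR's quasi-likelihood test has no residual degrees of freedom and was not run.

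Each library was taken by its name in the labels. Log2 ratios used a pseudocount of 0.1 and 2-fold counts a minimum RPKM of 1 in at least 1 library. Folds are ratios of RPKM without a pseudocount. Their 95% intervals are the exact Clopper-Pearson intervals of the share of reads, scaled by the library sizes implied by RPKM (71463423 and 69449374), and cover counting error only. A fold against 0 reads was computed at 3 reads. Coordinates and exon overlaps came from GENCODE vM1, which is on the same build, and promoters from RefSeq. Alternatives were other pseudocounts, minimum levels, thresholds and scalings (edgeR TMM, DESeq2 median of ratios), reference exon lengths and a stricter κB consensus. The steps were tested on simulated data. The genes, the lists and the tests were chosen with earlier results of these data known. Genes named are the 10 genes, and from each pathway list the 3 with the largest log2 ratio past 2-fold and the one with the highest RPKM. Marker genes of any cell type could be named where their list is described. The genes Spi1 and Adgre1 were matched by their older symbols. Python 3.11.15, pandas 2.3.3, scipy 1.17.1, R 4.3.3, edgeR 4.0.16 and DESeq2 1.42.0 were used.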

Additional observations from a re-analysis of the deposited data

How the results depend on the processing

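Nfkbiz was counted as lower in the supportive library under all 10 alternatives to the count, and Vcam1 was counted as higher only at a 1.5-fold threshold. With a 4-fold threshold 1 of the 10 genes, Nfkbiz, was counted. Nfkbia fell under 2-fold with a pseudocount of 1, at a log2 ratio of -0.90, and with mitochondrial genes left out of the library size, at -0.99, and Tnfaip3 did not reach a minimum RPKM of 5. The ratios of Rela and Nfkb2 lay so near 1 that their sign changed with the scaling, from -0.01 to 0.11 for Rela and from -0.11 to 0.01 for Nfkb2 on the log2 scale. The log2 ratio of Vcam1 ran from 0.78 to 0.92, that of Nfkbiz from -2.79 to -2.33, that of Tnfaip3 from -1.65 to -1.12 and that of Icam1, at 3 and 22 reads, from -2.84 to -0.15. The count over all genes was 1199 with a pseudocount of 1, 878 with a minimum RPKM of 5, 3660 with no minimum, 659 at 4-fold and 3638 at 1.5-fold, and that over the pathway lists was 18, 13, 39, 15 and 37. With exon lengths of the reference annotation the Rela share in the supportive library was 38.2%. The stricter κB consensus matched the promoters of 3 genes as well. No paired analysis was possible because each population has 1 library, and none could be left out in turn. Depth limits the genes with few reads in a library, among them Icam1, Il1a, Tnf, Mmp13, Tnfaip6 and Usp18, whose counting intervals are wide.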
